A study of Danio rerio with 6 samples.

Results

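The insulin-like growth factor binding proteins (IGFBPs) are secreted proteins that hold insulin-like growth factors (IGFs) outside the cell. The family was taken as the rows of the deposited table whose annotation names a single gene equal to igfbp1a, igfbp1b, igfbp2a, igfbp2b, igfbp3, igfbp5a, igfbp5b, igfbp6a, igfbp6b or igfbp7. All 10 genes were found, each with 1 row, among 19260 named genes. The genes were selected on their names, but the family was chosen with earlier results at hand, which included the hypoxia and normoxia values of igfbp1a and the difference of igfbp7. The differences between groups below are therefore a description, and nothing is supported with them.

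Each array (Affymetrix Zebrafish Gene 1.0 ST) held the RNA of 1 whole brain, taken from a Tübingen strain zebrafish (Danio rerio) of about 1 year whose sex was not given. The hypoxia group was 3 fish kept for 3 h in water whose oxygen had been displaced by nitrogen, to 1.20 ± 0.6 mg/l. The normoxia group was 3 fish at 6.6 ± 0.45 mg/l, the normal oxygen level of the water; whether these errors are SD or SE was not stated. No mutation, drug or other treatment was named for either group, and the labels do not say how long the normoxia fish were held. Fish carry the numbers of their titles, such as hypoxia 1 or normoxia 3. Each is a separate animal, and values are log2 signals, so a difference of 1 is a doubling.

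IGFs bind a receptor tyrosine kinase on the cell surface and signal for growth, survival and glucose use through the kinase Akt. Binding proteins keep most IGF away from that receptor, and proteases that cleave them set it free. The igfbp1 genes are the members known for strong control by the environment: in fish and mammals low oxygen, through hypoxia-inducible factor (HIF), and also glucocorticoids and fasting raise igfbp1, mostly in liver. In zebrafish embryos, excess Igfbp1 slows growth and development under low oxygen. The study asked which brain transcripts differ after short hypoxia, and the family allows the oxygen-controlled igfbp1 pair to be set beside relatives less known for control by oxygen.

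The arrays were not alike in their spread. The SD over genes of a single array was 1.25, 1.34 and 1.42 in hypoxia 1, 2 and 3. In normoxia 1, 2 and 3 it was 1.60, 1.27 and 1.47. igfbp1a, igfbp1b, igfbp3 and the mean of the neuronal markers rose over hypoxia 1, 2 and 3 in the same order as this SD. Over the normoxia fish, of these only the neuronal mean followed the order of the SD. Normoxia 1, the array of widest spread, was the lowest of the 6 fish for igfbp1b (6.82) and igfbp3 (7.66). Whether array spread has a part in such orders of the fish was not tested. The median log2 difference over all 19260 genes, hypoxia minus normoxia, was -0.08, and only 38.9% of them had a higher mean in hypoxia. Bright genes leaned lower: of 4 equal bins of genes by mean level, the brightest had a median difference of -0.19 and the dimmest one of 0.09. Neuronal markers averaged 10.38 to 10.79 in hypoxia brains and 10.34 to 10.97 in normoxia brains, over 10 measured genes that include snap25a and elavl3. Pituitary hormone genes (gh1, prl, pomca, cga and smtlb) averaged 10.96 in hypoxia 3 and 11.43 in normoxia 3, against 6.28 to 7.22 in the other 4 fish, so these 2 samples held far more pituitary transcript than the rest. In whole brains, fewer cells of a type and less RNA per cell cannot be told apart.

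No member passed the threshold of the limma fit, an adjusted p of 0.05 over all genes, at which 0.00519% of all genes (1 of 19260) passed. Adjusted p of the members ran from 0.625 for igfbp7 to 0.95 for igfbp6a. Means were higher in hypoxia for 4 members (igfbp1a, igfbp1b, igfbp3 and igfbp6a) and lower for the other 6, where 38.9% of all genes were higher and 61.1% lower. The median difference over the family was -0.13, next to -0.08 over all genes. Values of the groups did not overlap for 1 of 10 members, igfbp7, which was lower in hypoxia, where 9.01% of all genes were lower without overlap. These shares are given as background and nothing is read from them.

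**Figure D1:**
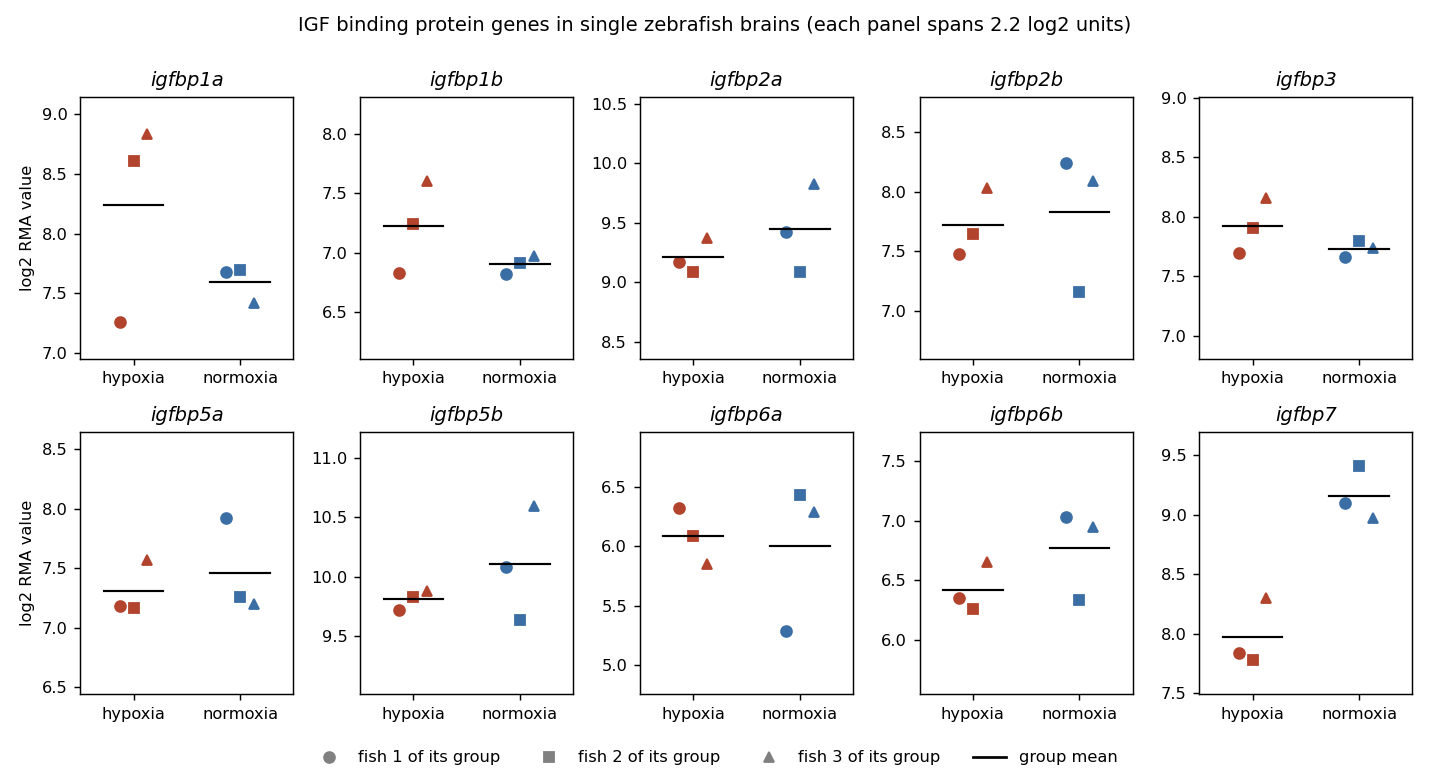
The 10 IGF binding protein genes in each fish, as log2 RMA values (vertical axis, 2.2 log2 units in each panel) with hypoxia left and normoxia right; symbols mark fish 1, 2 and 3 of a group and the line is the group mean. The groups separate for igfbp7 alone, and for igfbp1a, igfbp1b and igfbp3 the fish hypoxia 2 and hypoxia 3 lie above the 3 normoxia fish while hypoxia 1 does not.

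The igfbp1 paralogues differed more among hypoxia fish than between groups. igfbp1a, which sequesters IGF in the blood and tissue fluid, was 7.26, 8.61 and 8.84 in hypoxia 1, 2 and 3, against 7.68, 7.69 and 7.42 in the normoxia fish. Hypoxia 2 and hypoxia 3 stood 0.92 and 1.15 log2 units above the highest normoxia fish, while hypoxia 1 was the lowest of all 6. The group means were 8.24 ± 0.85 in hypoxia and 7.60 ± 0.15 in normoxia (SD, n = 3 fish each). The log2 difference was 0.64 (SE 0.37, 95% interval -0.20 to 1.48, limma adjusted p = 0.736), or 1.56-fold. The interval therefore includes no difference and also an increase of more than 1 log2 unit. The SD of igfbp1a among the hypoxia fish was larger than that of 99.1% of all genes, and a single fish moved its difference widely: it was 1.13 without hypoxia 1 and 0.34 without hypoxia 3.

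igfbp1b, the duplicate of igfbp1a from the teleost genome duplication, ordered the hypoxia fish in the same way with smaller steps. Its values were 6.83, 7.24 and 7.60 in hypoxia, against 6.82, 6.91 and 6.97 in normoxia. Hypoxia 3 was highest, hypoxia 2 next, and hypoxia 1 lay among the normoxia fish. The difference was 0.32 (SE 0.22, 95% interval -0.18 to 0.83, limma adjusted p = 0.755). It was 0.52 without hypoxia 1 and 0.14 without hypoxia 3.

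igfbp3, whose protein carries much of the circulating IGF in mammals, had the pattern of the igfbp1 pair on a still smaller scale. It was 7.70, 7.91 and 8.16 in hypoxia, against 7.66, 7.80 and 7.74 in normoxia, a difference of 0.19 (SE 0.19, limma adjusted p = 0.803). Hypoxia 2 and hypoxia 3 exceeded the highest normoxia fish by 0.11 and 0.36. In the RefSeq gene order (GRCz12tu) igfbp3 is the direct neighbour of igfbp1a, and igfbp1b has no IGFBP gene beside it. The pattern of hypoxia 2 and hypoxia 3 both above every normoxia fish was found in these 3 of the 10 members and in 3.96% of all genes; it was picked out after the values were seen and was not tested.

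Set against the rest of the family in each fish, the igfbp1 paralogues stood high in hypoxia 2 and hypoxia 3. Each gene was first expressed as its deviation from its own mean over the 6 fish, since signals of different probes cannot be compared as levels. The mean deviation of igfbp1a and igfbp1b was -0.44, 0.44 and 0.73 in the hypoxia fish and -0.24, -0.19 and -0.29 in the normoxia fish. That of the other 8 members was -0.21, -0.21 and 0.04 in hypoxia, against 0.16, -0.04 and 0.27 in normoxia. The igfbp1 pair thus varied most among hypoxia fish. The mean of the other 8 differed by -0.26 between groups, with overlap, and by -0.12 without igfbp7; igfbp3 and igfbp6a among them had higher means in hypoxia.

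The igfbp1 mean minus the mean of the other 8 was -0.23, 0.65 and 0.69 in hypoxia 1, 2 and 3 and -0.40, -0.14 and -0.57 in normoxia 1, 2 and 3. Hypoxia 1 lay within the normoxia range and the other hypoxia fish above it. The group means of this contrast were 0.37 ± 0.52 in hypoxia and -0.37 ± 0.21 in normoxia (SD, n = 3), 0.74 apart. The distance was 1.04 without hypoxia 1 and 0.58 without hypoxia 3. Because igfbp7 had the largest difference among the other 8, the distance was also taken without it, a choice made after seeing the data, and was 0.61. For igfbp1a alone against the same 8 it was 0.90, and for igfbp1b alone 0.58. No p is given, as the members were chosen with these values known.

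**Figure D2:**
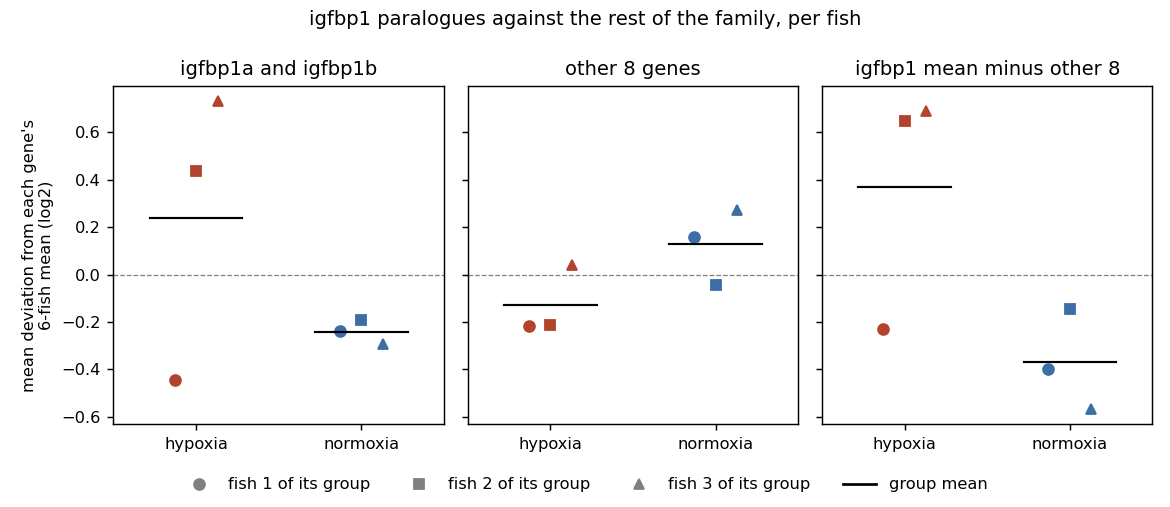
Mean deviation (log2, from each gene's own mean over 6 fish) of igfbp1a and igfbp1b, of the other 8 family members, and the difference of these per fish, with hypoxia left and normoxia right; lines are group means. Hypoxia 2 and hypoxia 3, at 0.65 and 0.69 in the right panel, stand above the normoxia fish, and hypoxia 1, at -0.23, lies among them.

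igfbp7 was the member with the widest separation. Its protein binds IGF weakly, also binds insulin, and is deposited around blood vessels, where endothelial cells make it. Its values were 7.84, 7.78 and 8.30 in the hypoxia fish and 9.10, 9.41 and 8.97 in the normoxia fish. Every hypoxia brain was below every normoxia brain, with a gap of 0.67 between the nearest fish. The group means were 7.97 ± 0.28 in hypoxia and 9.16 ± 0.23 in normoxia (SD, n = 3). The log2 difference was -1.19 (SE 0.21, 95% interval -1.67 to -0.70), a 2.28-fold lower signal, and ranked 11 by p among 19260 genes. It did not pass over all genes (limma adjusted p = 0.625). It ran from -1.35 to -1.06 when 1 fish was left out, and its adjusted p came closest to the threshold without normoxia 2, at 0.0883.

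Markers of several cell types had lower means in hypoxia beside igfbp7, and no marker passed the limma threshold. Of 13 measured endothelium markers 10 had a lower mean, where 61.1% of all genes did, with a median of -0.20. Most of the 13 lay in the bin of genes with mean levels of 7.40 to 8.36. In that bin only 24.0% of genes were higher in hypoxia and the median difference was -0.16. The markers in it were kdrl, kdr, tie1, tek, esama, cldn5a, flt1 and mfsd2aa. Their differences ran from -0.43 for tie1 and esama to 0.00 for kdr, and all but kdr had a lower mean. The rest of the 13 lay in other bins, so the whole list was not compared with this bin. The share without overlap was not taken within bins. Groups did not overlap for 6 of the 13, where 9.01% of all genes were lower without overlap: kdrl, tie1, tek, esama, flt1 and slc2a1a. Their differences ran from -0.77 for the glucose transporter gene slc2a1a to -0.24 for tek. The other 7 overlapped: cdh5 (-0.20), mfsd2aa (-0.16), cldn5a (-0.11), cldn5b (-0.06), kdr (0.00), plvapb (0.12) and plvapa (0.14).

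The mean log2 value of the 13 endothelium markers was 7.47, 7.53 and 7.57 in hypoxia, against 7.74, 7.81 and 7.68 in normoxia, so the groups did not overlap. Among the marker lists, only this list had means without overlap. The median over all named genes was 7.33, 7.32 and 7.38 in hypoxia, against 7.60, 7.40 and 7.45 in normoxia. That was also without overlap, though hypoxia 3 at 7.38 and normoxia 2 at 7.40 were close. plvapb, cldn5b and plvapa lay in the dimmest bin of genes, where detection is unknown. The difference of igfbp7 was larger in size than that of any of the 13. The part of endothelial markers in it was not tested.

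Glial and microglial lists were lower as well, but their list means overlapped between groups, with normoxia 2 at or near the hypoxia values. Over all genes 61.1% had a lower mean and 9.01% were lower without overlap. Most of the radial glia and of the oligodendrocyte markers lay in the brightest bin of genes. In that bin only 22.3% of genes were higher in hypoxia and the median difference was -0.19. Of 7 radial glia and astroglia markers 6 had a lower mean, 1 of them without overlap, median -0.45. The list averaged 9.91, 10.30 and 10.20 in hypoxia, against 10.53, 9.97 and 11.01 in normoxia. Of 5 oligodendrocyte and myelin markers 4 did, median -0.30, and the list averaged 9.29, 9.16 and 9.36 in hypoxia, against 9.96, 9.15 and 9.82 in normoxia. Of these, olig2, a transcription factor gene of the lineage, was lower without overlap (-0.94, limma adjusted p = 0.72).

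Of 9 microglia and macrophage markers 7 had a lower mean, where 61.1% of all genes did, median -0.17. Without overlap 1 of the 9 was lower, where 9.01% of all genes were. The largest difference of the list, -1.39 for mpeg1.1, was larger in size than that of igfbp7, but its groups overlapped. The list averaged 7.42, 7.50 and 7.49 in hypoxia, against 7.79, 7.48 and 7.96 in normoxia. In igfbp7, unlike in these lists, normoxia 2 was the highest of the 6 fish. The part of these cell types in the difference of igfbp7 was not tested.

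Markers of pericytes, smooth muscle and fibroblasts, the cells around vessels, overlapped between the groups. Their mean over 16 genes was 7.50, 7.42 and 7.52 in hypoxia, against 7.44, 7.54 and 7.54 in normoxia. Of the 16 genes 7 were higher and 9 lower, where 61.1% of all genes were lower. Of these, dcn, a matrix proteoglycan, was lower without overlap (-0.95, limma adjusted p = 0.72), as 9.01% of all genes were.

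**Figure D3:**
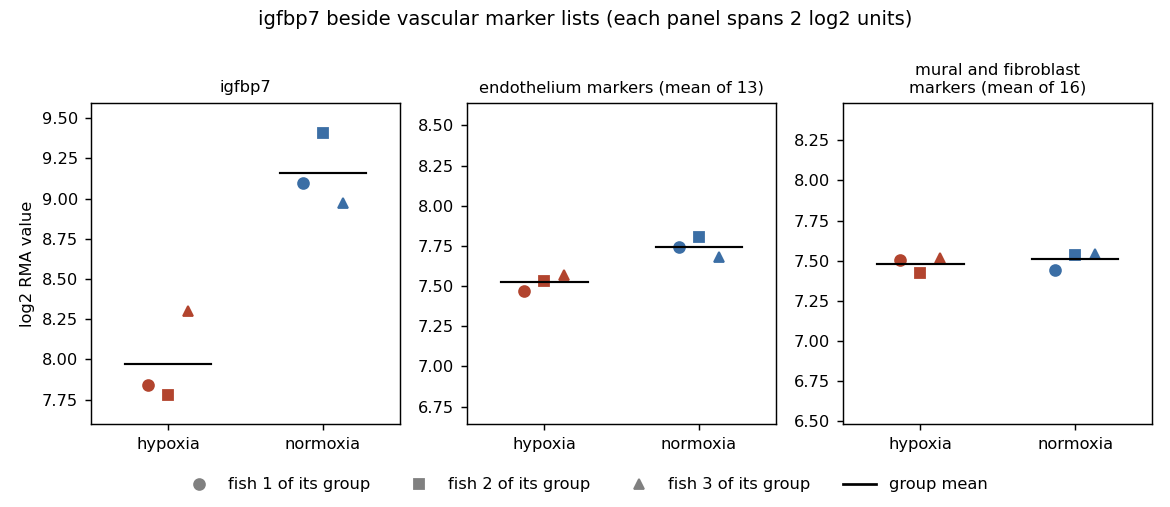
igfbp7, the mean of 13 endothelium markers and the mean of 16 pericyte, smooth muscle and fibroblast markers per fish, as log2 RMA values with hypoxia left and normoxia right; each panel spans 2 log2 units and lines are group means. igfbp7 separates by 0.67 between nearest fish, the endothelium mean is lower in hypoxia by a smaller step, and the mean of the cells around vessels overlaps.

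The remaining members were variable mainly among the normoxia fish. igfbp2a, a major IGF binding protein of the brain in mammals, was 9.17, 9.09 and 9.37 in hypoxia, against 9.42, 9.09 and 9.83 in normoxia. igfbp5b, of a type that binds heparin and extracellular matrix, was 9.72, 9.83 and 9.88 in hypoxia, against 10.08, 9.64 and 10.59 in normoxia. For both genes the highest normoxia fish was normoxia 3 and the highest hypoxia fish was hypoxia 3, the samples rich in pituitary transcript, and normoxia 2 was lowest in its group. The differences were -0.24 (SE 0.22) for igfbp2a and -0.29 (SE 0.25) for igfbp5b, near the median of -0.19 for genes in their bin of level. Without normoxia 3 they shrank to -0.04 and -0.05. The part of pituitary tissue in these values was not tested.

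The duplicates of these genes did not follow them closely. igfbp2b was 7.48, 7.65 and 8.03 in hypoxia, against 8.24, 7.16 and 8.09 in normoxia, a range of 1.08 over the 6 fish, with normoxia 2 lowest. igfbp5a was 7.18, 7.17 and 7.57 in hypoxia, against 7.92, 7.26 and 7.20 in normoxia, so normoxia 1 rather than normoxia 3 was its highest fish. Their differences, -0.11 (SE 0.30) and -0.15 (SE 0.24), had no stable sign: without normoxia 1 they were 0.10 and 0.08. igfbp2a and igfbp5a are direct neighbours in the RefSeq gene order. RefSeq gives igfbp2b as an older name of igfbp2a and the reverse, likewise for the igfbp5 pair; the genes were matched by Entrez identifier, which agreed for all 10 members.

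The igfbp6 pair, whose mammalian counterpart prefers IGF2 over IGF1 as its ligand, differed most in normoxia 1. igfbp6b was 6.35, 6.26 and 6.65 in hypoxia, against 7.03, 6.33 and 6.95 in normoxia, a difference of -0.35 (SE 0.23). igfbp6a was 6.32, 6.09 and 5.85 in hypoxia, against 5.29, 6.43 and 6.29 in normoxia, a difference of 0.08 (SE 0.30). Normoxia 1, the array of widest spread, was highest for igfbp6b and lowest for igfbp6a. igfbp6a lay in the dimmest bin of genes, and the sign of its difference turned with equal array medians (-0.02), with quantile normalization (-0.05) and without normoxia 1 (-0.27).

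**Figure D4:**
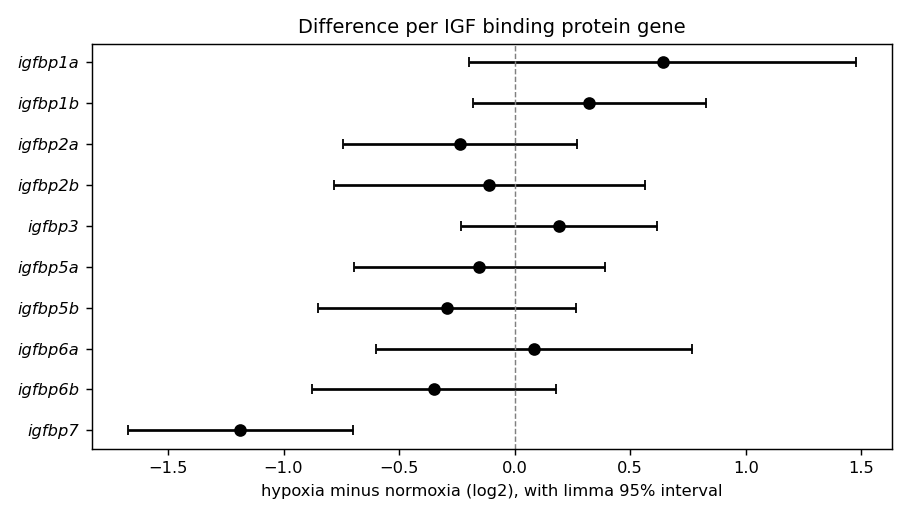
Log2 difference, hypoxia minus normoxia, of each IGF binding protein gene with its limma 95% interval (not adjusted for the number of genes). The intervals of 9 members include 0; that of igfbp7 runs from -1.67 to -0.70, but igfbp7 did not pass over all genes (adjusted p = 0.625).

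The IGF ligand genes had differences from -0.40 to 0.33, and the receptor genes from 0.08 to 0.25. Of 6 ligand genes 3 had a higher mean in hypoxia and 3 a lower one, the median difference was -0.09, and none passed or was free of overlap. igf1 was 6.95, 7.45 and 7.54 in hypoxia, against 8.02, 6.97 and 8.05 in normoxia. The embryonic and adult growth factor genes igf2a and igf2b had differences of -0.40 (SE 0.24) and -0.34 (SE 0.32), and igf1 one of -0.37 (SE 0.31). The fish-specific igf3, known from gonads, had 0.33, and the insulin genes ins and insb had 0.16 and 0.23. Both insulin genes lay in the dimmest bin of genes.

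All 5 receptor genes had slightly higher means in hypoxia, where 38.9% of all genes did. igf1ra (0.10) and igf1rb (0.08), the signalling receptors, and insra (0.08) overlapped between groups, as did igf2r (0.24), which removes ligand from the surface. insrb, an insulin receptor gene, was 9.12, 9.20 and 9.16 in hypoxia, against 9.10, 8.70 and 8.92 in normoxia, higher without overlap by 0.25 (SE 0.18), where 2.33% of all genes were higher without overlap. None of the 5 passed the limma threshold (adjusted p from 0.757 to 0.924).

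Genes that release IGF from binding proteins, or block that release, were split. htra1a and htra1b encode secreted serine proteases that cut IGFBPs in mammals. htra1a was 7.67, 7.73 and 7.95 in hypoxia, against 9.05, 8.19 and 8.34 in normoxia, lower without overlap (difference -0.74, SE 0.25, limma adjusted p = 0.72). htra1b had a difference of -0.80 (SE 0.30) with overlap. stc2a, a stanniocalcin gene of a family that inhibits the IGFBP-cleaving pappalysins, was 7.77, 8.06 and 7.53 in hypoxia, against 9.12, 8.32 and 8.20 in normoxia, also lower without overlap (-0.76, SE 0.27, limma adjusted p = 0.72). These were 2 of the 8 measured genes of this list, where 9.01% of all genes were lower without overlap. For htra1a and stc2a, normoxia 1 was the highest fish.

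In the same list pappa2, a pappalysin gene, was 6.83, 6.67 and 6.98 in hypoxia, against 6.53, 6.50 and 6.54 in normoxia (0.30, SE 0.17). igfals, which encodes a partner of circulating IGF complexes, was 6.77, 6.90 and 6.79 in hypoxia, against 5.76, 6.63 and 6.17 in normoxia (0.63, SE 0.24). Both were higher without overlap, as 2.33% of all genes were. igfals lay in the dimmest bin of genes, where detection is unknown and 65.2% of genes had a higher mean in hypoxia. stc1 (-0.26), stc1l (0.24) and stc2b (0.10) overlapped. Of the 8 measured genes 4 were higher and 4 lower, and none passed the threshold. pappaa and pappab were not analysed here.

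Other parts of the pathway were counted beside all genes, of which 38.9% were higher, 2.33% higher without overlap and 9.01% lower without overlap. In the growth hormone axis 3 of 10 genes were higher, median -0.07. In IGF and insulin signalling 12 of 48 were higher, median -0.11, with 2 higher and 4 lower without overlap. Of IGFBP-related proteins, such as the CCN matrix proteins, 6 of 12 were higher, median 0.02. Of the IGF2 mRNA-binding proteins, which bind RNA and are not members of the IGFBP family, 4 were measured, with differences from -0.09 to 0.41. No gene of these 4 lists passed the limma threshold.

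Genes that share a known inducer with igfbp1 were set beside it fish by fish. The pattern of hypoxia 2 and hypoxia 3 above every normoxia fish, found in 3.96% of all genes, was present in 1 of 17 HIF-induced genes, 4 of 11 glucocorticoid-induced genes, 2 of 10 FOXO-induced or insulin-repressed genes and 3 of 12 genes of the amino acid and endoplasmic reticulum stress response. trib3 is counted in both of the last lists, and irs2a both in the FOXO list and among the signalling genes below. The pattern was not limited to these lists. It was also present in 1 of 5 IGF receptor genes and 5 of 48 signalling genes. In the list of IGFBP proteases and inhibitors it was present in 2 of 8 genes: pappa2 and igfals, a partner of IGF complexes. Among markers it was present in 1 of 5 of liver and 1 of 16 of pericytes, smooth muscle and fibroblasts, and the remaining lists had none. These counts were made after the pattern was seen and were not tested. Of 17 measured HIF-induced genes 4 had a higher mean in hypoxia and 13 a lower one, where 38.9% of all genes were higher and 61.1% lower. The median difference was -0.19, next to -0.08 over all genes. Most of the 17 had mean levels of at least 7.40. The bins of genes from that level up had median differences of -0.16 and -0.19, with 24.0% and 22.3% of genes higher. egln3, a HIF-induced prolyl hydroxylase, was 6.85, 6.34 and 8.10 in hypoxia, against 6.97, 7.61 and 6.96 in normoxia. ankrd37, another HIF target, was 7.06, 6.88 and 8.49 in hypoxia, against 7.12, 7.28 and 6.43 in normoxia. Hypoxia 3 was the highest fish for both, as for igfbp1a and igfbp1b, but hypoxia 2, which was high for the igfbp1 pair, lay below the highest normoxia fish in both.

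pfkfb4b, a glycolytic regulator, was higher in every hypoxia fish (8.38, 8.47 and 8.84, against 7.67, 8.21 and 7.94 in normoxia), a difference of 0.62 (limma adjusted p = 0.72). slc2a1a (-0.77) and ndrg1a (-0.91) were lower without overlap. Over all genes 2.33% were higher and 9.01% lower without overlap. The other HIF-induced genes overlapped between groups: vegfaa (-0.25), vegfab (-0.29), ldha (-0.48), bnip3 (-0.34), bnip3la (-0.30), egln1a (-0.19), pfkfb3 (-0.19), pdk1 (-0.18), adma (-0.14), pfkfb4a (-0.13), ca9 (0.14) and hk2 (0.06). In ldha and bnip3 hypoxia 1 was the lowest fish, as it was in igfbp1a. ldha was 9.07 in hypoxia 1 and 10.07 to 10.43 in the other 5 fish, and bnip3 was 9.59 there and 10.45 to 10.96 elsewhere. Hypoxia 1 was also the array of narrowest spread over genes.

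Of 11 measured glucocorticoid-induced genes 8 had a higher mean in hypoxia, where 38.9% of all genes did, and the median difference was 0.23. klf9, a transcription factor gene, was 10.77, 11.82 and 11.89 in hypoxia, against 8.28, 11.39 and 10.37 in normoxia. fkbp5, a cochaperone gene of the receptor, was 10.31, 10.72 and 11.22 in hypoxia, against 7.27, 10.43 and 10.29 in normoxia. Hypoxia 2 and hypoxia 3 were the highest fish for both, the same pair as in igfbp1a, and normoxia 1 was the lowest. tsc22d3, a leucine zipper gene, was 10.52, 10.95 and 11.18 in hypoxia, against 10.82, 10.80 and 10.88 in normoxia, with hypoxia 1 lowest of the 6 fish as in igfbp1a. dusp1, a phosphatase gene, was higher without overlap (0.79), as 2.33% of all genes were. Whether glucocorticoid signalling has a part in the igfbp1 values was not tested. cebpd (0.61), zbtb16a (0.37), pck1 (0.23), pdk4 (0.20), sgk1 (-0.19), per1b (-0.44) and per1a (-0.61) overlapped, as did klf9 (1.48), fkbp5 (1.42) and tsc22d3 (0.05), and none of the 11 passed the limma threshold.

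Among 10 genes induced by FOXO factors or repressed by insulin, 6 were higher, where 38.9% of all genes were, median 0.14. Over all genes 2.33% were higher without overlap. trib3, a pseudokinase gene that restrains Akt, was 7.34, 7.80 and 7.82 in hypoxia, against 7.18, 7.32 and 7.31 in normoxia, higher without overlap (0.38, limma adjusted p = 0.72), and was again highest in hypoxia 2 and hypoxia 3. irs2a, an insulin receptor substrate gene, was 9.97, 10.27 and 10.64 in hypoxia, against 10.17, 9.93 and 10.11 in normoxia (0.22), with the same 2 fish highest. The others overlapped: pdk2b (0.39), pck1 (0.23), pdk4 (0.20), pck2 (0.09), sesn1 (-0.14), sesn3 (-0.22), cited2 (-0.23) and klf15 (-0.36).

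The amino acid and endoplasmic reticulum stress response can also raise igfbp1. Of its 12 genes 8 had a lower mean in hypoxia, where 61.1% of all genes did, median -0.10. Without overlap 4 were lower, where 9.01% of all genes were: psat1 (-1.55) and phgdh (-0.96) of serine synthesis, the cystine transporter gene slc7a11 (-1.22) and the transcription factor gene atf4a (-0.51). trib3, on this list too, was the 1 gene higher without overlap, as 2.33% of all genes were. ddit4, an inhibitor of mTOR, was 8.94, 9.41 and 10.14 in hypoxia, against 8.41, 8.94 and 9.27 in normoxia (0.62). chac1, a glutathione-degrading enzyme gene, was 11.41, 11.75 and 12.17 in hypoxia, against 11.23, 11.51 and 11.64 in normoxia (0.32). In both, hypoxia 2 and hypoxia 3 were above every normoxia fish, as in the igfbp1 pair. atf3 (0.24), asns (-0.03), ddit3 (-0.09), atf4b (-0.11) and sesn2 (-0.21) overlapped, and none of the 12 passed (adjusted p = 0.248 for psat1 by limma).

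**Figure D5:**
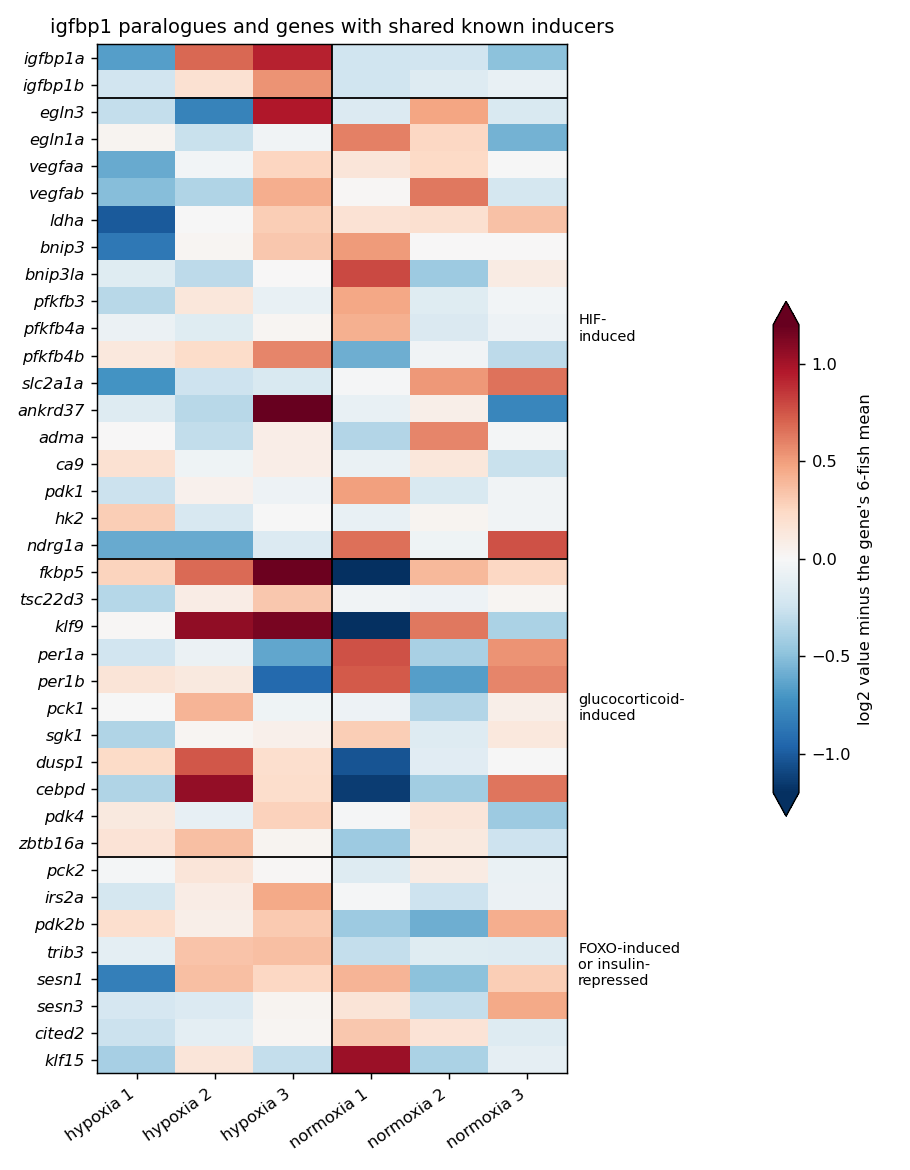
Log2 value minus the gene's mean over 6 fish (colour, red above and blue below the mean, saturating at 1.2) of igfbp1a, igfbp1b and genes known to be HIF-induced, glucocorticoid-induced, or FOXO-induced or insulin-repressed; columns are fish, hypoxia left. pck1 and pdk4 belong to the last list too and are drawn once. Hypoxia 2 and hypoxia 3 both exceed every normoxia fish for the igfbp1 pair, pfkfb4b, klf9, fkbp5, tsc22d3, dusp1, irs2a and trib3. Other genes, such as bnip3 and cebpd, are also above their means in both fish. For egln3 and ankrd37, among others, hypoxia 3 is red and hypoxia 2 is not.

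Markers of liver, the main source of igfbp1 in the body, were dim in these samples. The 5 measured liver markers (apoa2, fgb, fga, ttr and serpina1) averaged 6.34, 6.35 and 6.14 in hypoxia, against 5.53, 6.38 and 5.74 in normoxia, with single genes at means of 5.33 to 6.43, all in the dimmest bin of genes. All 5 had a higher mean in hypoxia, where 65.2% of genes in the dimmest bin and 38.9% of all genes did. Their median difference was 0.40, next to 0.09 in the dimmest bin. ttr was higher without overlap (0.68), as 2.33% of all genes were. The list means overlapped between groups, and the part of liver transcript in the igfbp1 values was not tested. fabp10a and apoa1b, which define liver better, were not analysed here.

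The genes most like each of 3 members over the 6 fish were listed by Pearson's r among 7209 genes that had informative names and an SD of at least 0.3. The 6 points share their 2 groups and the unequal array spread, so r describes likeness only. For igfbp1a the closest were ets2 (0.97), pnp5a (0.96), agr1 (0.96) and slc43a2a (0.95), with 14 genes at 0.9 or above. ets2, a transcription factor gene, was 8.57, 9.35 and 9.53 in hypoxia, against 8.91, 9.03 and 8.83 in normoxia. In ets2, as in igfbp1a, hypoxia 1 was the lowest of the 6 fish.

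For igfbp1b the closest were chac1 (0.96), sox11b (0.95), eif4ebp3l (0.95) and rps6kb1a (0.95), with 15 genes at 0.9 or above. The family member igfbp3 had a higher r with igfbp1b (0.98), but its SD of 0.18 kept it out of the genes compared. eif4ebp3l encodes a repressor of translation initiation of the type that mTOR switches off. It was 7.84, 8.19 and 8.85 in hypoxia, against 7.32, 7.55 and 7.79 in normoxia, higher without overlap by 0.74 (SE 0.27, limma adjusted p = 0.72). For igfbp7 the closest were dcp1b (0.98), gnmt (0.98), calub (0.97) and cox6a2 (0.97), with 45 genes at 0.9 or above. All 4 were lower in hypoxia, with differences of -0.54 for dcp1b, -0.68 for gnmt, -0.67 for calub and -0.58 for cox6a2, which the choice by likeness to igfbp7 brings with it.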

How the data were processed

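The authors scanned 6 arrays, 1 per fish, and deposited log2 values. Per the labels' design text, RMA was used to correct background and quantiles were normalized, and the submitters' processing notes list RMA and Affymetrix Expression Console. The deposited columns nevertheless keep unequal medians (6.28 to 6.60) and SDs (1.85 to 1.98), which quantile normalization of these rows would have made equal. The versions, the genome build and any filters were not stated, and the log2 scale was judged from the values, which run from 1.62 to 14.34. Arrays give no molecule counts, so precision rests on 3 fish per group and, in the limma fit, on variance shared over genes.

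Of 75212 rows, 20806 named 1 gene, 855 named several and 53551 none. Rows naming the same single gene were averaged, which gave 19260 genes, with symbols updated by Entrez identifier. Differences are hypoxia minus normoxia, tested across the 6 arrays without covariates by lmFit and eBayes of limma 3.58.1 (R 4.3.3). P-values were adjusted over the 19260 genes by Benjamini-Hochberg, with 0.05 as the threshold. As a check of the code, the procedure was run on simulated independent genes without the unequal array spread seen here. That run cannot show how the fit behaves under such spread. Members and gene lists were chosen with earlier results of these data known. All members are named. Ligands, receptors, proteases and their inhibitors, and inducer-sharing genes are named whatever their values, and other list members if without overlap and 0.8 or more in size. The most alike genes are the 4 with the highest Pearson r. Exceptions chosen after seeing values are snap25a, elavl3, mpeg1.1, the endothelial, pituitary and liver genes and the other amino acid and stress response genes. Titles share replicate numbers but do not say that fish are paired. Alternatives were a replicate block, each fish left out, other scalings, the brightest row, a filter on dim genes and an intensity trend.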

Additional observations from a re-analysis of the deposited data

How the results depend on the processing

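No member passed under any alternative, and 112 of 120 recomputed member differences kept their sign. That count overstates stability. The block, the brightest row, the filter on dim genes and the intensity trend could not change a member's difference, so their share of the 120 was fixed in advance. Signs turned for igfbp2b (-0.445 to 0.095 with 1 fish left out, positive without hypoxia 1, normoxia 1 or normoxia 3), igfbp5a (-0.285 to 0.0767 with 1 fish left out, positive without normoxia 1) and igfbp6a (-0.0233 with equal array medians, -0.0456 with quantile normalization, and -0.273 to 0.297 with 1 fish left out, negative without hypoxia 1 or normoxia 1). The cause was not tested. Equal array medians moved the median of all genes by -0.11 and left 24.8% of them higher in hypoxia, against 38.9% as deposited. The number of genes past the threshold, 1 as deposited, was 0 with equal array medians, with the filter on dim genes and with the intensity trend (1196, 1255 and 1300 genes at an unadjusted p under 0.05), 3 with quantile normalization, and 0 to 17 with 1 fish left out, 17 being without normoxia 2. With the replicate block it was 1, and the block changed no call of a member. Whether the 1 gene was the same with and without the block was not compared. Same-numbered fish deviated together with correlations of -0.34, 0.10 and 0.20 for numbers 1, 2 and 3, so the numbers were not taken as pairs. The distance between groups of the igfbp1 pair minus the other 8 was 0.70 with quantile normalization and 0.58 to 1.04 with 1 fish left out. It was 0.74 with equal medians and with the block, but neither of these can change a balanced difference taken within arrays. Signal over background was not given for these arrays, so igfbp6a, which lies in the dimmest bin of genes, rests on signal of unknown detection. Intervals rest on 3 fish per group and on the variance of all genes, towards which eBayes draws that of each gene. A variable gene such as igfbp1a thus gets a narrower interval than its fish alone would give.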
